A study of Mus musculus with 16 samples.

Results

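Nanos2, Nanos3, Lin28a, Lin28b, Dnd1 and Dazl encode RNA-binding regulators of the germ line, and their transcript levels are described here in sorted mouse spermatogonia recovering from busulfan. The genes were taken by symbol as germline RNA-binding regulators of the stem and progenitor state. All 6 symbols are among the 16383 genes in the deposited expression table, and all 6 passed the filter on low values, as 6 of 12907 genes tested. All 6 transcripts were present in every library, and none of them differed between the genotypes or treatments beyond the spread between libraries. From library to library, 4 of the 6 rose and fell with the germ cell gene Ddx4, while Nanos2 and Dnd1 did not pass that test. How many of all tested genes follow Ddx4 as closely was not counted.

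Transcripts were measured by polyA RNA sequencing of undifferentiated spermatogonia, the mitotic germ cells that include the stem cells of spermatogenesis, isolated by fluorescence-activated sorting from adult mice. All mice in all groups had received busulfan, an alkylating drug that kills germ cells, at 10 mg/kg by intraperitoneal injection 10 days before collection. From day 3 they were injected daily for 7 days with either vehicle (10% DMSO in PBS) or 2.5 mg/kg of PD0325901, which blocks MEK1 and MEK2, the kinases upstream of ERK. The 4 groups of 4 libraries were wild type with vehicle (WT_vehicle), wild type with PD0325901 (WT_PD), Spry4 G-KO with vehicle (KO_vehicle) and Spry4 G-KO with PD0325901 (KO_PD). G-KO is a germline knockout of Spry4, which encodes a feedback inhibitor of signalling from receptor tyrosine kinases to ERK. Column names carry Spry4ff for the wild type and GCRT_Spry4KO for the knockout, so any effect of what GCRT names and the loss of Spry4 cannot be told apart. No group without busulfan is among the samples, the labels do not state whether replicates are separate animals, and the sorting markers and the deleted part of Spry4 were not given in the sources used here.

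Germ cells control many transcripts after transcription, and these 6 genes act at that level. NANOS2 and NANOS3 are zinc finger proteins that bring target RNAs to the CCR4-NOT deadenylase complex, and NANOS2 is known for keeping male germ cells in the stem cell state. DND1 is a partner of NANOS2 in choosing target RNAs and is needed for germ cell survival. LIN28A and LIN28B bind precursors of the let-7 microRNAs and block their maturation, and LIN28A is a marker of undifferentiated spermatogonia, mainly of progenitors. DAZL binds 3′ UTRs and promotes translation of germ cell transcripts, and is found in germ cells from before birth to meiosis. ERK signalling downstream of GDNF and FGF receptors supports spermatogonial stem cells, which is the setting in which Spry4 and MEK were manipulated.

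The relation between LIN28 and let-7 can be read in the sequences, shown here because it is the best known target relation of the group. The mature let-7 microRNAs of RefSeq (mouse build GRCm38.p6), 9 names in all, share 1 seed. The sequences of let-7a, let-7d and miR-98 differ outside it, and the seed (bases 2 to 8) is in capitals.
mmu-let-7a-5p: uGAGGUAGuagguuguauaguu
mmu-let-7d-5p: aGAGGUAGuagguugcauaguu
mmu-miR-98-5p: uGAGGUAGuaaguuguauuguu
LIN28 proteins are known to contact a GGAG element in the terminal part of let-7 precursors. The letters GGAG stand between the mature arms in 9 of 12 hairpins of the family in RefSeq. Mirlet7a-1 has them, in capitals, and Mirlet7b does not.
Mirlet7a-1 hairpin, chr13:48538179-48538272, minus strand: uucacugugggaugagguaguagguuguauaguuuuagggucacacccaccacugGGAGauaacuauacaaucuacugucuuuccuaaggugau
Mirlet7b hairpin, chr15:85707319-85707403, plus strand: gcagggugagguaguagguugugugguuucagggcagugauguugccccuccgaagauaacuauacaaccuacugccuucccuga
The microRNAs themselves were not measured by these polyA libraries and are not analysed here.

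Both Lin28 transcripts also carry the complement of the let-7 seed in their own 3′ UTRs. The letters CTACCTC, searched on the transcript strand only in the GENCODE M21 3′ UTRs (build GRCm38), occurred 2 times in Lin28a and 4 times in Lin28b, and not in Nanos2, Nanos3, Dnd1 or Dazl. Of all 20947 annotated 3′ UTRs, 8.80% held the letters at least once. Among 3′ UTRs of like length (at least 0.8 times as long, and at most the length divided by 0.8), 2.11% had as many matches as Lin28a and 0.298% as many as Lin28b. The sites are printed with the seed match in capitals and flanking bases of the 3′ UTR.
Lin28a 3′ UTR, chr4:134005178-134005207, minus strand: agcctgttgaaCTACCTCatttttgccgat
Lin28a 3′ UTR, chr4:134004540-134004569, minus strand: tcgccacaaacCTACCTCactgtgttgaaa
Lin28b 3′ UTR, chr10:45381011-45381040, minus strand: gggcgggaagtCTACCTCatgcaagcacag
Lin28b 3′ UTR, chr10:45378637-45378666, minus strand: cttgttagtaaCTACCTCtgagtttgacat
Lin28b 3′ UTR, chr10:45378465-45378494, minus strand: acagcacatggCTACCTCccagctaccaca
Lin28b 3′ UTR, chr10:45377049-45377078, minus strand: gatggcaccgaCTACCTCttcaatcacttg
The Pumilio element TGTANATA, also searched on the transcript strand, is the letter pattern of proteins that act with NANOS and DAZL. It occurred once in the Lin28a and 2 times in the Lin28b 3′ UTR, and in none of the other 4 genes. Of all 3′ UTRs 23.2% held at least 1, and of those of like length 43% had as many as Lin28a and 25% as many as Lin28b, so these matches were common for such long 3′ UTRs. A match is a description of letters and not a measured site.

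Promoter sequences of 5 of the genes were read from RefSeq (GRCm38.p6) by symbol, as a window of 300 bases around the start annotated there, and 3 are shown. Lin28b and Dazl are shown because their levels moved together across the libraries, and Nanos2 because its r with them over the 16 libraries was 0.18 and -0.07. The 3 sequences have little in common by base composition. Dazl held 28 CpG dinucleotides and Lin28b held 8, against a median of 7 over 32851 promoters, while Nanos2 held 0. Motifs were searched on both strands, and capitals mark CCAAT (in 37.4% of all promoters), CACGTG (7.15%) or TATAAA (13.6%), written as their reverse complement where they lie on the other strand. GGGCGG (35.7%) was searched too and is in none of the 3.
Nanos2, chr7:18987274-18987573, plus strand: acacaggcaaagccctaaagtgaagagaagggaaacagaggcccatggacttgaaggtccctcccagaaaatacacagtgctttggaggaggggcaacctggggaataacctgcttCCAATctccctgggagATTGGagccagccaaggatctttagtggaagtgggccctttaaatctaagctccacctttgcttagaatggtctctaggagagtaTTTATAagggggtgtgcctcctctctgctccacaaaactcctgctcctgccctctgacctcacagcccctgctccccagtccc
Lin28b, chr10:45470152-45470451, minus strand: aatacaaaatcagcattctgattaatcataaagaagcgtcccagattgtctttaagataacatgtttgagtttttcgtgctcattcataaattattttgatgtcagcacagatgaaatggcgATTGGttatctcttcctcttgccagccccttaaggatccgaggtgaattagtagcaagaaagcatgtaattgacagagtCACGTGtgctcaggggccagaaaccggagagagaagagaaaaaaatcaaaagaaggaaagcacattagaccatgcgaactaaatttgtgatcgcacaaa
Dazl, chr17:50293571-50293870, minus strand: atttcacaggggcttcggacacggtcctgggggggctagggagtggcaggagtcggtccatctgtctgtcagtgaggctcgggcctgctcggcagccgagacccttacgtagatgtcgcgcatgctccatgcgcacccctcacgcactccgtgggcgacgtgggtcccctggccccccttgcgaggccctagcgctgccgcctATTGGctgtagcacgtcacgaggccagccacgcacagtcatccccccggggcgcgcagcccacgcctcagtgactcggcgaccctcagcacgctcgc
CCAAT was thus found in all 3 shown, CACGTG in Lin28b and TATAAA in Nanos2. The promoters of Nanos3 and Lin28a, searched but not shown, held 0 CCAAT and 1 GGGCGG each. The Lin28b window belongs to a RefSeq start that lies inside the GENCODE span of the gene and not at its outermost start. The Nanos2 window holds the GENCODE start of the gene (18987400), and most of the window lies downstream of it. The TATAAA match of Nanos2 is in that downstream part.

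The libraries differed in the transcripts of other cell types that they held. Values are FPKM, reads per kilobase of gene scaled to the size of the library, and the divisors behind them were estimated at 23360600 to 36615100 reads, the smallest library size that turns low values into whole reads. Spry4 ranged from 15.9 to 27.4 FPKM in wild type and from 7.28 to 19.3 FPKM in the knockout, so the knockout libraries were lower as a group but not at 0 and overlapped the wild type. The summed level of 8 markers of undifferentiated spermatogonia (Lin28a and Nanos2 included) was 365 to 563 FPKM and that of 3 markers of differentiating spermatogonia 14.1 to 43.3 FPKM. The 7 contractile genes listed of peritubular myoid cells summed to 1152 to 11890 FPKM, with a range in every group that overlapped the others. Spermatocyte markers summed to 73.0 to 249 FPKM and endothelial markers to 4.36 to 13.7 FPKM. Spermatid markers summed to 7.18 to 2577 FPKM, highest in KO_vehicle 3. Sertoli cell markers (5 of 7 listed in the table, without Amh and Rhox5) summed to 4.03 to 12.4 FPKM and Star, the 1 Leydig cell marker in the table, was at 0.573 to 0.956 FPKM. Macrophage markers summed to 2.43 to 3.50 FPKM in wild type and 3.56 to 6.65 FPKM in the knockout, without overlap, and their part in the genotype comparisons was not tested. No listed marker was at 0 in all libraries. In sorted bulk RNA, fewer cells of a type and less RNA per cell cannot be told apart.

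Ordered by mean FPKM over the 16 libraries, which is per length and so allows genes to be compared, Dazl was highest at 128 ± 28.6 FPKM (SD, n = 16). Lin28a followed at 66.0 ± 12.8, Dnd1 at 21.9 ± 2.11, Nanos3 at 13.6 ± 2.96, Nanos2 at 4.89 ± 0.851 and Lin28b at 4.56 ± 0.915 FPKM. The first 4 steps of this order held in 16 of 16 libraries. The last step, Nanos2 above Lin28b, held in 11 of 16, so these neighbours did not differ beyond their spread. Dazl stood at the 98.9th percentile of mean level among tested genes and Lin28a at the 96.6th, while Nanos2 (35.9th) and Lin28b (33.9th) were in the lower part. The spread among the members was as uneven as the levels. Dazl spanned 2.33-fold from its lowest to its highest library and Nanos3 2.26-fold, against 1.37-fold for Dnd1.

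**Figure D1:**
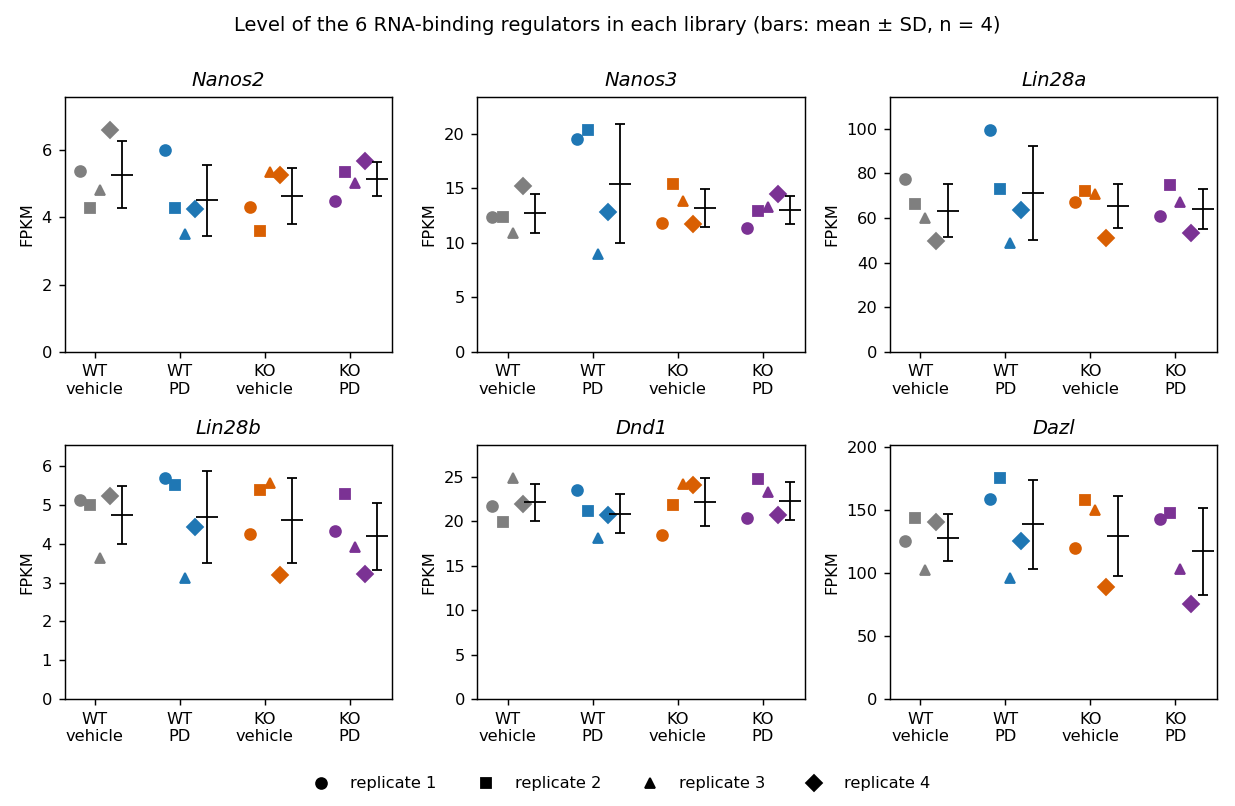
FPKM (y axis, linear from 0) of each gene in the 16 libraries, by group (x axis) with the replicate number as marker shape. Bars give mean ± SD of 4 libraries. For every gene the 4 groups overlap, and WT_PD has the widest spread of Nanos3 and Lin28a.

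Nanos2 (ENSMUSG00000051965, chr7:18987400-18988962, plus strand, GRCm38), the NANOS protein tied to the stem cell state, was low but detected in every library, with an estimated 139 to 325 reads. Its replicates 1 to 4 were at 5.39, 4.27, 4.83 and 6.59 FPKM in wild type with vehicle (5.27 ± 0.992, SD, n = 4). They were at 5.99, 4.29, 3.49 and 4.26 FPKM in wild type with PD0325901 (4.51 ± 1.06, SD, n = 4). The highest of all 16 libraries was thus WT_vehicle 4 and the lowest WT_PD 3, and the wild-type groups overlapped. In replicate order, values were 4.30, 3.597, 5.34 and 5.28 FPKM in the knockout with vehicle (4.63 ± 0.836, SD, n = 4). They were 4.49, 5.36, 5.03 and 5.68 FPKM in the knockout with PD0325901 (5.14 ± 0.507, SD, n = 4). Every knockout library lay within the range of the wild-type libraries. With MEK inhibition the mean was lower in wild type and higher in the knockout, and neither difference exceeded the spread.

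Nanos3 (ENSMUSG00000056155, chr8:84173731-84185217, minus strand), known from the survival of primordial germ cells and also present in undifferentiated spermatogonia, was 2.83 ± 0.720 times as high as Nanos2 (SD over 16 libraries). Its replicates were at 12.3, 12.4, 10.8 and 15.2 FPKM in wild type with vehicle (12.7 ± 1.81, SD, n = 4). They were at 19.5, 20.3, 8.99 and 12.8 FPKM in wild type with PD0325901 (15.4 ± 5.45, SD, n = 4). WT_PD held both the highest libraries (replicates 1 and 2) and the lowest (replicate 3) of the series, so its SD was the largest of the 4 groups. The values were 11.8, 15.4, 13.8 and 11.8 FPKM in the knockout with vehicle (13.2 ± 1.75, SD, n = 4). They were 11.3, 12.9, 13.3 and 14.5 FPKM in the knockout with PD0325901 (13.01 ± 1.32, SD, n = 4). The knockout libraries were close together and all lay inside the wild-type range.

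Dnd1 (ENSMUSG00000044595, chr18:36763671-36766214, minus strand), the partner of NANOS2, was the steadiest of the 6, with an estimated 1125 to 2119 reads a library. Its replicates were at 21.7, 19.97, 24.9 and 22.0 FPKM in wild type with vehicle (22.1 ± 2.05, SD, n = 4). They were at 23.5, 21.1, 18.2 and 20.7 FPKM in wild type with PD0325901 (20.9 ± 2.17, SD, n = 4). The inhibitor groups and vehicle groups overlapped in wild type. The replicates stood at 18.5, 21.8, 24.2 and 24.1 FPKM in the knockout with vehicle (22.2 ± 2.67, SD, n = 4). They stood at 20.4, 24.8, 23.3 and 20.7 FPKM in the knockout with PD0325901 (22.3 ± 2.13, SD, n = 4). The 4 group means lay between 20.9 and 22.3 FPKM, a range below the SD of any 1 group.

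Lin28a (ENSMUSG00000050966, chr4:134003330-134018841, minus strand), the LIN28 protein marking progenitors, was abundant in every library. Its replicates were at 77.6, 66.1, 60.03 and 49.6 FPKM in wild type with vehicle (63.3 ± 11.7, SD, n = 4). They were at 99.3, 73.2, 49.0 and 63.6 FPKM in wild type with PD0325901 (71.3 ± 21.2, SD, n = 4). WT_PD 1 was the highest and WT_PD 3 the lowest of all 16 libraries. The values stood at 67.1, 72.2, 70.9 and 50.9 FPKM in the knockout with vehicle (65.3 ± 9.83, SD, n = 4). They stood at 61.1, 74.8, 67.0 and 53.2 FPKM in the knockout with PD0325901 (64.0 ± 9.15, SD, n = 4). The knockout groups nearly coincided and lay inside the wild-type range.

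Lin28b (ENSMUSG00000063804, chr10:45376620-45486395, minus strand), the paralog of Lin28a, was the lowest of the 6 by mean. Replicates 1 to 4 were at 5.13, 4.996, 3.63 and 5.22 FPKM in wild type with vehicle (4.74 ± 0.749, SD, n = 4). They were at 5.70, 5.50, 3.12 and 4.43 FPKM in wild type with PD0325901 (4.69 ± 1.19, SD, n = 4). WT_vehicle 3 was far below the other 3 libraries of its group, which agreed closely. The levels were 4.25, 5.39, 5.56 and 3.20 FPKM in the knockout with vehicle (4.60 ± 1.103, SD, n = 4). They were 4.33, 5.29, 3.92 and 3.21 FPKM in the knockout with PD0325901 (4.19 ± 0.867, SD, n = 4). All 4 groups overlapped. Lin28a stood at 14.7 ± 2.02 times Lin28b (SD, n = 16), lowest in WT_vehicle 4 (9.498) and highest in WT_PD 1 (17.4).

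Dazl (ENSMUSG00000010592, chr17:50279395-50293636, minus strand), the translational regulator, had the most reads behind it, an estimated 9347 to 20795 a library. Its replicates were at 126, 144, 103 and 140.2 FPKM in wild type with vehicle (128 ± 18.6, SD, n = 4). They were at 158, 175, 95.8 and 125 FPKM in wild type with PD0325901 (139 ± 35.4, SD, n = 4). The highest of all libraries was WT_PD 2. The replicates were at 120.0, 158, 149.9 and 88.5 FPKM in the knockout with vehicle (129 ± 31.7, SD, n = 4). They were at 143, 147, 103 and 75.2 FPKM in the knockout with PD0325901 (117 ± 34.4, SD, n = 4). KO_PD 4 was the lowest of all, and replicates 3 and 4 of KO_PD lay below replicates 1 and 2.

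The comparisons asked whether loss of Spry4, MEK inhibition or both together moved these genes, and in none of them did a member pass. Differences were estimated by limma on log2(FPKM + 0.5) and p-values adjusted by the Benjamini-Hochberg method over all 12907 tested genes, with 0.05 as the threshold. In all 7 comparisons 0 of 6 members passed, and so did 0 of all tested genes. All 42 intervals (6 genes, 7 comparisons) at 95% confidence included 0, and for no member did the libraries of the groups separate in any of the 4 pairwise comparisons. Separation was not counted over all tested genes, so its absence here is a description only.

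For knockout against wild type with vehicle, 0 of 6 members were called, as for 0% of tested genes. At an unadjusted p below 0.05 the count was 0 of 6, against 1.94% of tested genes (251 genes). The log2 differences ran from -0.17 ± 0.16 (SE) for Nanos2 to 0.06 ± 0.20 for Nanos3, and 2 of 6 were above 0. Dnd1 (0.00 ± 0.10) and Dazl (-0.01 ± 0.25) had nearly the same mean in both genotypes. With PD0325901, 0 of 6 were called, as for 0% of tested genes, and 0 of 6 had an unadjusted p below 0.05, against 4.69% (605 genes). The values ran from -0.26 ± 0.25 for Dazl to 0.19 ± 0.16 for Nanos2, with the other 4 between. Without KO_PD 4 the value of Dazl was -0.06 and without WT_PD 3 it was -0.42, and that of Nanos2 was 0.09 without WT_PD 3 and 0.32 without WT_PD 1. Nanos3, at -0.17 ± 0.20, was at -0.40 without WT_PD 3 (limma, unadjusted p = 0.026, adjusted p = 0.755) and at -0.018 without WT_PD 2. The median of the members was -0.13 and that of all tested genes -0.01. The mean of both treatments called 0 of 6 (0% of tested genes), with 0 of 6 at an unadjusted p below 0.05 against 4.35% (561 genes), and values from -0.13 ± 0.17 for Dazl to 0.05 ± 0.07 for Dnd1.

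For inhibitor against vehicle in wild type, 0 of 6 members were called (0% of tested genes), and 0 of 6 had an unadjusted p below 0.05 against 0.891% (115 genes). Nanos2 had the lowest value, -0.21 ± 0.16, and Nanos3 the highest, 0.21 ± 0.20. Both moved with single libraries. Nanos2 was at -0.34 without WT_PD 1 (limma, unadjusted p = 0.041, adjusted p = 0.9996) and at -0.11 without WT_vehicle 4. Nanos3 in WT_PD fell into a pair of high libraries (replicates 1 and 2) and a pair of lower ones (replicates 3 and 4). The high pair has the lower library numbers in the column names and the other pair the higher. Its difference between inhibitor and vehicle was 0.44 without WT_PD 3 (limma, unadjusted p = 0.016, adjusted p = 0.992) and 0.06 without WT_PD 2. In the knockout 0 of 6 were called (0% of tested genes), and 0 of 6 had an unadjusted p below 0.05 against 2.96% (382 genes), with values from -0.16 ± 0.25 for Dazl to 0.15 ± 0.16 for Nanos2. The mean of both genotypes gave 0 of 6 (0% of tested genes) and 0 of 6 unadjusted against 1.84% (238 genes). Its values ran from -0.07 ± 0.14 for Lin28b to 0.10 ± 0.14 for Nanos3.

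The interaction, the difference between the inhibitor's effects in the 2 genotypes, called 0 of 6 members (0% of tested genes), with 0 of 6 at an unadjusted p below 0.05 against 1.71% of all genes tested. Nanos2 had the largest value in size, 0.36 ± 0.23 (limma, adjusted p = 0.999), and the smallest unadjusted p of all 42 member tests. Without WT_PD 1 it was 0.49 (unadjusted p = 0.033, adjusted p = 0.9999) and without WT_vehicle 4 it was 0.26. Dazl had -0.25 ± 0.35 and Nanos3 -0.23 ± 0.29, and their order rested on single libraries. Dazl ran from -0.41 without KO_vehicle 4 to -0.05 without KO_PD 4, and Nanos3 from -0.45 without WT_PD 3 to -0.075 without WT_PD 2. For Dazl the interaction's interval ran from -0.99 to 0.50, and for Dnd1, the most precise gene, the genotype difference averaged over treatments ran from -0.11 to 0.20. Of the variance of the members, 4.24% (Lin28a) to 16.8% (Nanos2) lay between the 4 groups, where the median of all tested genes was 12.7%.

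**Figure D2:**
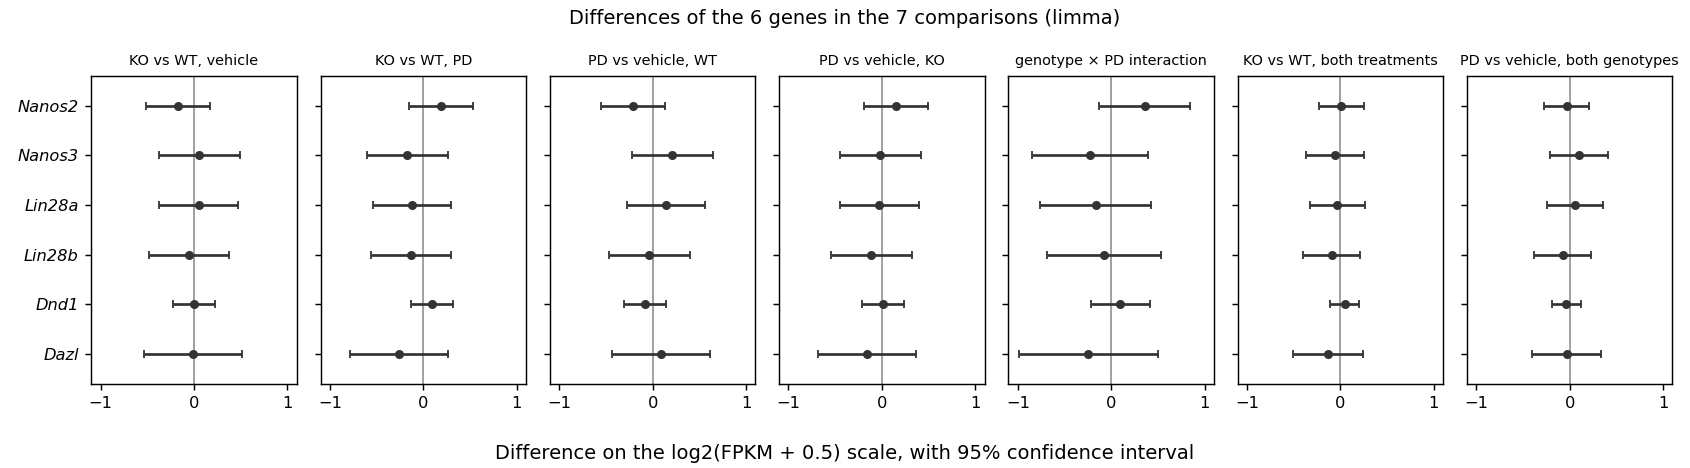
Difference (x axis, log2(FPKM + 0.5) scale) of each gene (y axis) in the 7 comparisons, 1 panel each. Points are limma estimates and bars 95% confidence intervals. All 42 bars cross 0, and Dnd1 has the shortest bars and Dazl the longest.

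The members differed in how they varied from library to library. Lin28b and Dazl rose and fell together over the 16 libraries (r 0.93, permutation p = 1e-05, the smallest 100000 permutations can give, adjusted over 15 pairs 0.00015, rho 0.94, adjusted 0.00015). With the 2 most distant libraries left out, r was 0.92, and with the group means removed it was 0.94. Within the 8 lower library numbers of the column names r was 0.70 and within the 8 higher 0.94. Dazl stood at 28.1 ± 2.44 times Lin28b (SD, n = 16), while each gene alone varied 1.83-fold (Lin28b) and 2.33-fold (Dazl). Lin28a joined them less closely, with r 0.73 with Lin28b (permutation p adjusted 0.00885, rho 0.76) and 0.65 with Dazl (adjusted 0.0246, rho 0.72). Without the 2 farthest libraries these were 0.64 and 0.59, and within the lower and higher library numbers 0.74 and 0.51 for Lin28b, 0.30 and 0.45 for Dazl. Nanos3 had r 0.64 with Lin28b (adjusted 0.0246, rho 0.73), or 0.55 without the 2 farthest, and 0.78 and 0.60 within the library numbers. With Lin28a and Dazl its r of 0.56 and 0.54 did not pass (permutation p adjusted 0.0622 and 0.0655). By rho the pair with Dazl passed (0.62, adjusted 0.0367) and that with Lin28a did not (0.48, adjusted 0.13). Without the 2 farthest libraries these r were 0.27 and 0.32. They were 0.67 and 0.80 within the lower library numbers and 0.26 and 0.31 within the higher. Nanos2 and Dnd1 passed with no other member. Their r with each other was 0.57 (permutation p = 0.021, adjusted 0.0622, rho 0.51), and those of Nanos2 with Dazl and of Dnd1 with Dazl were -0.07 and 0.10. Within the library numbers some of their pairs were closer. Among the lower 8, r was 0.74 for Dnd1 with Lin28b, 0.65 for Dnd1 with Lin28a and 0.68 for Nanos2 with Lin28a, and among the higher 8 it was 0.31, 0.48 and -0.02 for the same pairs. Nanos2 with Nanos3 had 0.12 among the lower and 0.85 among the higher numbers. Whether the correlations differ between pairs was not tested. The permutations shuffled all 16 libraries freely, so their p-values do not allow for groups or for lower and higher library numbers.

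The genes that moved together also followed Ddx4, the RNA helicase found throughout the germ line. With Ddx4, which averaged 107 ± 23.0 FPKM (SD, n = 16), r was 0.95 for Lin28b and 0.93 for Dazl (permutation p = 1e-05 each, the smallest possible, adjusted over 12 relations 6e-05, rho 0.94 and 0.91). It was 0.79 for Lin28a (adjusted 0.00092, rho 0.84) and 0.66 for Nanos3 (adjusted 0.014, rho 0.68). With the 2 libraries most distant from the median of Ddx4 left out, r was 0.93, 0.93, 0.69 and 0.57 in the same order, and within the lower and higher library numbers it ran from 0.55 to 0.97. For Nanos2 and Dnd1 r was 0.04 and 0.09 (adjusted 0.884 and 0.796, rho 0.19 and 0.20). Within the lower and higher library numbers they were 0.17 and 0.33 for Nanos2 and 0.60 and 0.20 for Dnd1. Among the lower numbers r of the other 4 ran from 0.75 (Dazl) to 0.93 (Nanos3), all above Dnd1. Taken as a ratio to Ddx4, Lin28b varied with an SD of 0.097 on the log2 scale against 0.28 alone, and Dazl with 0.12 against 0.34. The same ratio widened the SD of Nanos2 from 0.23 to 0.41 and of Dnd1 from 0.14 to 0.34. The SD alone is of log2(FPKM + 0.5) and that of the ratio of log2 FPKM, so the scales differ somewhat for the low genes Lin28b and Nanos2. Library for library, Dazl stayed at 1.19 ± 0.0999 times Ddx4, from 1.001 in KO_PD 4 to 1.34 in KO_PD 1. The share of all tested genes with as high an r with Ddx4 was not counted, so these relations may be common in these libraries.

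With Zbtb16, a transcription factor of undifferentiated spermatogonia, the members were more alike. Its r was 0.65 with Lin28a (permutation p adjusted over the same 12 relations 0.0189, rho 0.65), 0.61 with Nanos3 and 0.59 with Lin28b and with Dnd1 (adjusted 0.0214 each, rho 0.56, 0.67 and 0.40). By rho the order differed, since Dnd1 had an adjusted permutation p of 0.164 and Lin28a, Lin28b and Nanos3 had 0.0135, 0.0135 and 0.0381. For Dazl r was 0.48 (adjusted 0.0749), while its rho of 0.65 passed (adjusted 0.0135). For Nanos2 r was 0.41 (adjusted 0.14, rho 0.29, adjusted 0.322). With the 2 libraries most distant from the median of Zbtb16 left out, r was 0.67 for Lin28a, 0.58 for Lin28b, 0.57 for Dazl and -0.06 for Nanos2. It was 0.39 for Nanos3 and 0.27 for Dnd1, lower than over all libraries, though leaving out the extremes of Zbtb16 also narrows its range. With the group means removed, r was 0.74 for Nanos3 and 0.56 for Dnd1. Within the lower and higher library numbers r ran from 0.46 to 0.78 for Lin28a, Lin28b, Nanos3 and Dnd1. It was 0.32 and 0.64 for Nanos2 and 0.48 and 0.32 for Dazl.

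**Figure D3:**
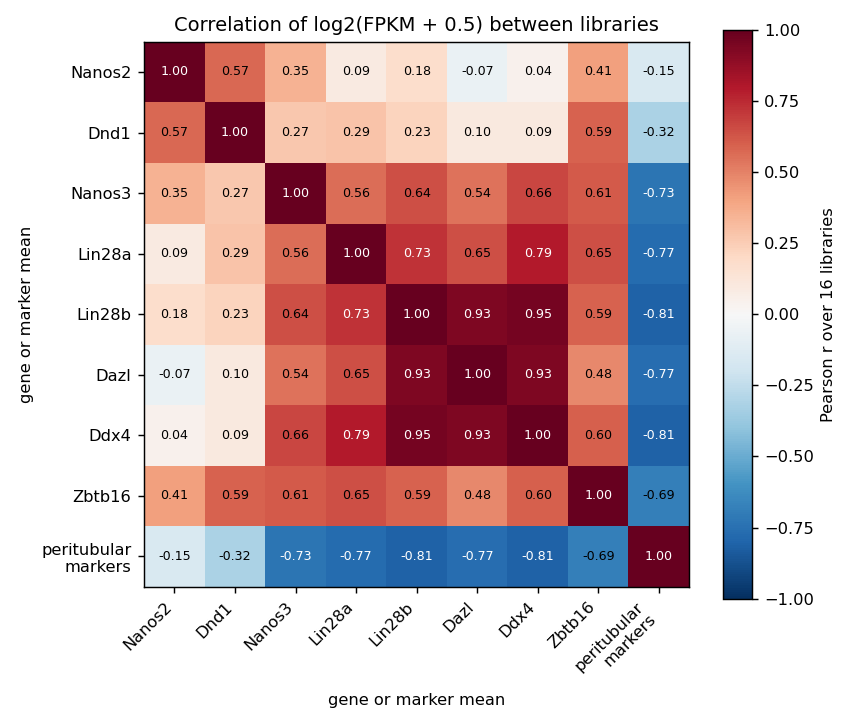
Pearson r of log2(FPKM + 0.5) over 16 libraries between the 6 genes, Ddx4, Zbtb16 and the mean of the peritubular markers (both axes), from -1 (blue) to 1 (red). Nanos3, Lin28a, Lin28b, Dazl and Ddx4 have r of 0.54 to 0.95 with each other and run against the peritubular markers. Of these pairs, Nanos3 with Lin28a and Nanos3 with Dazl did not pass by r. For Nanos2 and Dnd1, r with these 5 genes is -0.07 to 0.35.

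The same 4 genes were lower where transcripts of contractile cells were higher. Against the mean log2 level of the 7 peritubular markers, r was -0.81 for Lin28b, -0.77 for Lin28a, -0.77 for Dazl and -0.73 for Nanos3 (permutation p adjusted over 12 relations 0.00228, 0.00228, 0.0026 and 0.0039, rho -0.86, -0.85, -0.84 and -0.61). Without the 2 farthest libraries the values were -0.80, -0.86, -0.71 and -0.67. Within the lower library numbers they were -0.72, -0.66, -0.63 and -0.90 and within the higher -0.79, -0.67, -0.71 and -0.46. For Dnd1 r was -0.32 and for Nanos2 -0.15 (adjusted 0.544 and 0.888, rho -0.29 and -0.18), and within the lower and higher library numbers it was -0.43 and -0.55 for Dnd1 and -0.21 and -0.39 for Nanos2. Such a relation was common in these libraries. Over all tested genes r with these markers had its 5th percentile at -0.78 and its 95th at 0.93, and 3.15% of tested genes lay below Lin28b, 5.71% below Lin28a, 6.07% below Dazl and 8.66% below Nanos3, against 35.6% below Dnd1 and 43.2% below Nanos2. FPKM values of a library share 1 total, which these correlations have in common. With spermatid markers no member had an adjusted permutation p below 0.888, and r ran from -0.07 to 0.16.

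**Figure D4:**
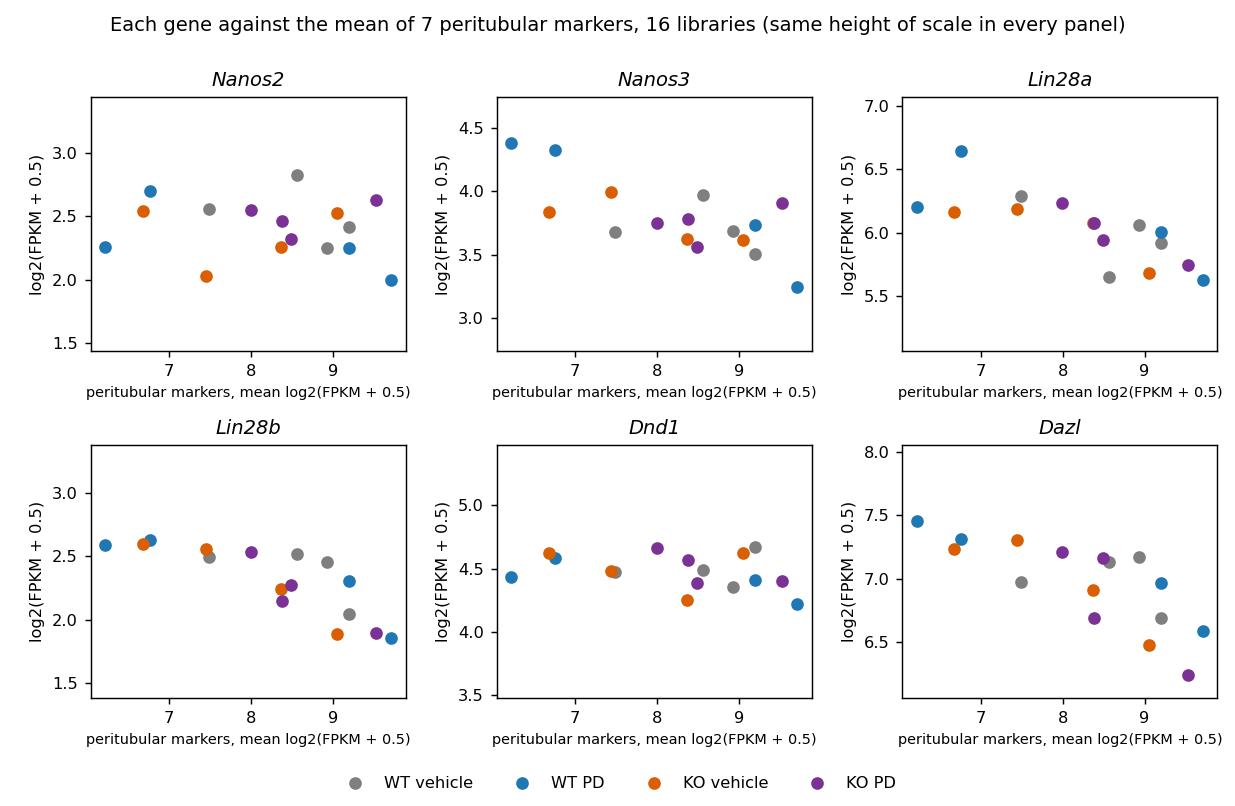
Level of each gene (y axis, log2(FPKM + 0.5), the same height of scale in each panel) against the mean log2 level of 7 peritubular markers (x axis) in 16 libraries coloured by group. Lin28b, Lin28a, Dazl and Nanos3 slope down (r -0.73 to -0.81), and Dnd1 and Nanos2 less so (r -0.32 and -0.15).

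Library numbers moved with the same genes. In the 8 libraries with lower numbers the median of Dazl was 146 FPKM (120 to 175), and in the 8 with higher numbers 103 (75.2 to 149.9). For Lin28a the medians were 72.7 and 56.6 FPKM and for Lin28b 5.21 and 3.78 FPKM, with overlapping ranges. The 2 sets held 42.7%, 44.2% and 35.3% of the variance of these 3 genes, against 3.28% for Dnd1, 4.08% for Nanos2 and 9.88% for Nanos3. For Ddx4 the sets held 51.4%, so r with Ddx4 over the 16 libraries includes this difference between the sets. Each group has 2 libraries in each set, replicates 1 and 2 in the lower and replicates 3 and 4 in the higher. No label says what the numbers stand for. Peritubular markers and library number both moved with Lin28a, Lin28b and Dazl, and their part in those levels was not tested.

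With the peritubular and spermatid means as terms of the model, the spread of Lin28a, Lin28b, Dazl and Nanos3 shrank and the calls stayed at 0. The number of all tested genes with an unadjusted p below 0.05 rose, from 605 to 2296 for knockout against wild type with inhibitor, from 115 to 1129 for inhibitor against vehicle in wild type, and to 1505 for the interaction. No member was among them in any comparison. The SE of the pairwise genotype difference with vehicle fell from 0.20 to 0.11 for Lin28a and from 0.20 to 0.12 for Lin28b, and stayed at 0.16 for Nanos2. The differences of Lin28b and Dazl in that comparison went from -0.05 and -0.01 to -0.20 and -0.18. For knockout against wild type with inhibitor they went the other way, from -0.13 and -0.26 to 0.035 and -0.07. The Nanos2 interaction became 0.45 ± 0.24 (limma, adjusted p = 0.466).

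Genes whose levels were most like each member over the 16 libraries were taken from all tested genes, and their r is given as a description since it chose them. Nanos2 was closest to Crtac1 (r 0.82), to Ern1, the stress sensor IRE1 of the endoplasmic reticulum (0.80), and to Rogdi (0.80), and no gene exceeded 0.9. Twf1, which encodes an actin-binding protein, ran opposite (-0.85). Nanos3 was closest to Igf2bp2, itself an RNA-binding protein and a known let-7 target (0.89), to the ribosome biogenesis factor Rrp15 (0.86) and to Mrps18b of the mitochondrial ribosome (0.85). Its opposite, Dmrtc1a (-0.92), was at 0.2 to 2.03 FPKM. For Dnd1 only Nrbp1, a pseudokinase, exceeded 0.9 (0.92), followed by the BH3-only protein Bmf (0.89) and Pafah1b3 (0.88), with the palmitoyltransferase Zdhhc17 opposite (-0.85).

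The Lin28 genes and Dazl had more such neighbours, with 15 genes above r 0.9 for Lin28a, 134 for Lin28b and 174 for Dazl. Lin28a was closest to Cmklr1, a chemoattractant receptor (0.94), to Xrcc6, the Ku70 subunit of DNA end joining (0.93), and to the fucosyltransferase Fut4 (0.93), with Klhl22 opposite (-0.95). Lin28b was closest to the kinetochore gene Dsn1 (0.97), the histone chaperone Nap1l1 (0.97) and Zcchc10 (0.96), with Tnrc18 opposite (-0.98). Dazl was closest to Cbfb, the partner subunit of RUNX factors (0.99), to Tbc1d15 (0.97) and to the cyclophilin Ppid (0.96), with Dgkz, a diacylglycerol kinase, opposite (-0.95).

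Partners through which these proteins act were expressed and showed no call. All 15 genes of the CCR4-NOT and PAN deadenylase list, the machinery NANOS proteins recruit, passed the filter, 0 were called in any comparison, and their median difference lay between -0.06 and -0.0047 over the 7 comparisons, beside -0.015 to 0.0091 for all tested genes. Cnot1, the scaffold of the complex, was at 37.3 FPKM by mean and Cnot2 at 34.0. Cnot6, a catalytic subunit, had the smallest p of the list, with -0.27 ± 0.10 for knockout against wild type under inhibitor (limma, adjusted p = 0.988). The 12 P-body and decapping genes, among them the helicase Ddx6 at 51.0 FPKM and Lsm14b at 72.4, had 0 calls and medians from -0.06 to 0.02. Of the 10 Pumilio and DAZ partners 0 were called, with medians from -0.09 to 0.02. Pabpc1, the poly(A)-binding protein that DAZL works with, was at 153 FPKM, and Dzip1, a DAZL-interacting protein, had 0.32 ± 0.13 for knockout against wild type with vehicle (limma, adjusted p = 0.9998).

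On the LIN28 side, 14 let-7 processing genes passed the filter and 0 were called, with medians from -0.08 to 0.0025. Drosha, the nuclear microRNA processing enzyme, was at 82.2 FPKM and Trim71, an RNA-binding protein of stem cells and a let-7 target, at 54.5. The let-7 target list had 13 of 14 genes tested and 0 called, with medians from -0.06 to 0.05. Igf2bp1, a let-7 target that stabilises transcripts, was the member with the smallest p, at 26.6 ± 2.68 and 24.97 ± 3.70 FPKM in wild type with vehicle and inhibitor and 30.1 ± 1.22 and 29.9 ± 1.95 FPKM in the knockout (SD, n = 4 each). Its genotype difference over both treatments was 0.22 ± 0.07 (limma, adjusted p = 0.998). Ccnd1, a cyclin of the G1 phase, averaged 43.5 FPKM.

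Of 12 meiotic genes known to be under DAZL or NANOS2 control, all 12 were tested and 0 called, with medians from -0.07 to 0.03. Mael and Taf7l were the most abundant, at 151 and 126 FPKM. Stra8, the meiotic entry gene that NANOS2 represses and DAZL promotes, had -0.54 ± 0.26 for knockout against wild type with vehicle (limma, adjusted p = 0.9998) and 0.51 ± 0.26 for inhibitor against vehicle in the knockout (adjusted p = 0.968). Tex19.1 had the smallest p of this list for the interaction, with 0.37 ± 0.17 (adjusted p = 0.999).

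The stem cell state list was written with earlier results of these data known and is no independent evidence of a direction. It lists 13 genes, none of them a member, of which 12 passed the filter and were tested. These 12 had 0 calls in each comparison. With inhibitor in wild type 12 of 12 were lower, with a median of -0.23 beside 0.01 for all tested genes, and over both treatments 11 of 12 were higher in the knockout, with a median of 0.30 beside -0.015. At an unadjusted p below 0.05, 8 of the 12 stood in the latter comparison, where 4.35% of tested genes did. Etv5, the GDNF-responsive transcription factor, had 0.29 ± 0.09 there (limma, adjusted p = 0.998). The values of Nanos2, a stem cell gene outside this list, were -0.21 and 0.01 in the same comparisons, and those of Dnd1 -0.08 and 0.05.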

How the data were processed

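PolyA RNA libraries of 16 samples were grouped by genotype and treatment, per the labels. The authors deposited 1 table of FPKM values by gene symbol, per the labels. FastQC, STAR 2.7.10a, edgeR 4.0.14 and the builds mm10 and GRCm39 are named per the submitters' processing notes, without roles, while counter, gene lengths and filter were not given in the sources used here. Stranded libraries were made with the KAPA kit, per the labels' protocols. The values of 14 libraries carry up to 4 decimals and those of WT_vehicle 4 and WT_PD 4 up to 9.

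Library sizes were estimated from GENCODE M21 exon lengths, and they put 92.9% to 94.2% of values below 100 reads within 0.1 of a whole read. A factor on these sizes would not show, so reads are estimates, and any counting error from them covers counting only. Comparisons used R 4.3.3 and limma 3.58.1, fitted to log2(FPKM + 0.5), which understates changes of low genes, with a variance trend and 1 mean per group over 16 libraries. Genes that reached 1 FPKM in 4 or more libraries were tested (12907, with 3476 left out) and p-values adjusted by Benjamini-Hochberg within a comparison, threshold 0.05. The labels do not call the replicates separate animals, so p-values reflect only the spread among these libraries, which may be technical. Correlations used 100000 permutations over all 16 libraries, not restricted to groups or to library-number sets. The code was tested on simulated data.

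Alternatives were the pseudocount, no filter, replicate number, library-number set and marker terms, median scaling and leaving out each library. Leaving out both libraries with more decimals, and the subsets for correlations, were chosen after seeing the data. The members and all lists were chosen with earlier results of these data known. Named genes were the 6 members, Spry4, the markers Acta2, Zbtb16, Ddx4, Gfra1 and Kit, for each member the 3 tested genes with the highest and the 1 with the lowest r over the libraries (predicted genes and pseudogenes left out), and per list at most 2 with the smallest p and 2 with the highest level. No column of another sample was in the table.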

Additional observations from a re-analysis of the deposited data

Results flagged for a closer look

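Lin28b in WT_vehicle 3 stood apart from its group. It was at 3.63 FPKM, and the other 3 libraries lay between 4.996 and 5.22 FPKM. The gap was 0.859 of the range of the group, above the 95% critical value of Dixon's test for 4 libraries. It was the 1 case among 24 sets of 4 libraries (6 genes, 4 groups), of which chance flags about 5%. In the same library Dazl (103 FPKM) and Ddx4 (84.1 FPKM) were also the lowest of the group, the peritubular mean (9.20 on the log2 scale) was the highest, and the ratio of Lin28b to Ddx4 was 0.0431, beside 0.0448 ± 0.0013 (SD, n = 4) for the group. Without this library the difference of Lin28b between knockout and wild type with vehicle was -0.17 instead of -0.05.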

How the results depend on the processing

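No gene was called by limma in any of the 7 comparisons, and none under any alternative, so 0 stood for every count and no member's call changed. Of 330 member values under other settings 22 changed sign, and of 480 with 1 library left out 58 did, each from a value inside its interval around 0. The smallest adjusted p of a member was 0.459 under other settings and 0.702 with a library left out (limma). At an unadjusted p below 0.05 there were 0 member values under other settings and 4 with a library left out (Nanos2 without WT_PD 1 in 2 comparisons, Nanos3 without WT_PD 3 in 2). The cause was not tested. With libraries scaled to 1 median, the sign changed in knockout against wild type with vehicle for Dnd1 (0.016) and Dazl (0.0081). With the peritubular and spermatid terms, it changed in knockout against wild type with vehicle for Nanos3 (-0.068) and Lin28a (-0.077). It also changed in knockout against wild type with inhibitor for Nanos3 (0.019), Lin28a (0.076) and Lin28b (0.035). The next was inhibitor against vehicle in wild type for Lin28a (-0.034) and Dazl (-0.078). The next was inhibitor against vehicle in the knockout for Nanos3 (0.13), Lin28a (0.12), Lin28b (0.048) and Dazl (0.025). The next was the interaction for Nanos3 (0.087), Lin28a (0.15), Lin28b (0.23) and Dazl (0.10). Without both libraries with more decimals, it changed in knockout against wild type with vehicle for Lin28a (-0.062) and Dazl (0.036). It also changed in inhibitor against vehicle in wild type for Lin28b (0.025). The next was the inhibitor difference over both genotypes for Nanos2 (0.029) and Dazl (0.0083). Leaving out 1 library at a time, the values for knockout against wild type with vehicle ran from -0.018 to 0.14 for Nanos3, from -0.062 to 0.16 for Lin28a, from -0.17 to 0.091 for Lin28b, from -0.050 to 0.079 for Dnd1 and from -0.12 to 0.16 for Dazl. Those for knockout against wild type with inhibitor ran from -0.28 to 0.056 for Lin28a. Those for inhibitor against vehicle in wild type ran from -0.033 to 0.30 for Lin28a, from -0.15 to 0.13 for Lin28b and from -0.037 to 0.25 for Dazl. Those for inhibitor against vehicle in the knockout ran from -0.069 to 0.058 for Nanos3, from -0.14 to 0.059 for Lin28a, from -0.070 to 0.055 for Dnd1 and from -0.33 to 0.038 for Dazl. Those for the interaction ran from -0.33 to 0.0075 for Lin28a and from -0.24 to 0.033 for Lin28b. Those for the genotype difference over both treatments ran from -0.041 to 0.076 for Nanos2, from -0.17 to 0.019 for Nanos3 and from -0.12 to 0.052 for Lin28a. Those for the inhibitor difference over both genotypes ran from -0.10 to 0.020 for Nanos2, from -0.029 to 0.14 for Lin28a, from -0.15 to 0.0081 for Lin28b and from -0.12 to 0.063 for Dazl. The replicate block, with the replicate number as a term, gave 0 calls in each comparison. The SE of Dazl for knockout against wild type with vehicle was 0.19 with this term and 0.25 without it. By the median, libraries with the same number deviated together no more than others (r -0.53 to 0.73, median -0.05, against -0.03 for other numbers). These r are spread too widely to decide whether the numbers pair the libraries. Depth limits Nanos2 most, with a counting error of 5.55% to 8.48% on its estimated reads beside a spread (SD over mean) of 9.87% to 23.4% within groups, and Dazl least (0.69% to 1.03%). Median scaling moved the median of all genes by 0.023 at most.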

Other observations

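Other RNA-binding regulators of germ cells (25 genes, all tested) had 0 calls in the 7 comparisons, with medians from -0.09 to 0.04 beside -0.015 to 0.0091 for all tested genes. The decay factors Zfp36 and Zfp36l1, which bind AU-rich elements, were the most abundant of them and had wide spreads. Zfp36 was at 242 ± 51.0 and 251 ± 166 FPKM in wild type with vehicle and inhibitor, and at 168 ± 109 and 199.7 ± 76.8 FPKM in the knockout (SD, n = 4 each). Zfp36l1 was at 219.1 ± 39.9, 258 ± 157, 182 ± 79.0 and 196 ± 45.5 FPKM in the same order.

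Of 8 tested genes of the progenitor state, with Nanos3 and Lin28a left out of the list, 7 were higher with the inhibitor over both genotypes. Their median was 0.20 beside 0.0091 for all tested genes, and 0 were called by limma. At an unadjusted p below 0.05 stood 2 of the 8, where 1.84% of tested genes did. Neurog3, a transcription factor of progenitors, had 0.50 ± 0.20 (limma, adjusted p = 0.9999) and Rarg, a retinoic acid receptor, 0.25 ± 0.09 (adjusted p = 0.9999). Of 6 tested genes of differentiating cells 5 were higher in the same comparison, with a median of 0.15 and 0 at an unadjusted p below 0.05. Lin28a, the regulator that marks progenitors, had 0.06 ± 0.14 there, and Nanos3 had 0.10 ± 0.14. The lists were chosen with earlier results known.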
